A study of Homo sapiens with 6 samples.

Results

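Messenger RNA was compared between A375 melanoma cells given the BRAF inhibitor vemurafenib for 6 h and the same cells given vehicle, on 4 of the 6 arrays of the study. A375 is an established human melanoma cell line whose BRAF kinase carries an activating mutation. All cells derive from an eIF4B knockout of A375 made by CRISPR, so none of the groups is the unedited parent line. eIF4B is a cofactor of eIF4A, the RNA helicase that unwinds mRNA leaders during translation initiation. The knockout cells carry a lentiviral LacZ gene (KO/LacZ, here the knockout line) or lentiviral wild-type eIF4B (KO/eIF4B, here the rescued line). The promoter of the lentiviral gene, and whether either line is 1 clone, are not given in the sources used here.

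Each line has 1 array under vehicle (DMSO), 1 after 6 h of 10 µM vemurafenib and 1 after 18 h of the same dose. The comparison rests on 2 differences per gene, 6 h minus vehicle within each line. All changes below are the mean of these 2 on the log2 scale unless a line is named, and pairs of values give the knockout line first and the rescued line second. When vehicle cells were harvested is not given, so drug and time in culture cannot be told apart. Nor is it stated whether cultures were separate. A p-value here sets the mean change against a spread. The spread is taken from how unequally the 2 lines changed at 6 h and at 18 h, and is drawn toward a value shared by all probe sets. That spread may be technical, and it also holds any true difference between the lines in their response to the drug.

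In cells with mutant BRAF, the kinase drives MEK and ERK without an outside signal, and ERK switches on genes for cell division together with genes for its own brakes. Those brakes include the dual-specificity phosphatases, which remove phosphate from ERK, and the Sprouty and SPRED proteins, which act on the steps between receptors and RAF. Vemurafenib blocks the mutant kinase, so mRNAs that need continued ERK signalling and turn over quickly are the ones known to be lost in the first hours.

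The normalization sets all arrays to nearly the same median signal, here 5.20 to 5.22 log2 units. Control probe sets for the 3' and 5' ends differed by -0.01 to 0.04 for GAPDH and 0.13 to 0.18 for ACTB. The brightest EIF4B probe set read 8.40 and 10.07 under vehicle and 8.53 and 10.14 at 6 h, in the knockout and rescued lines, and its change of 0.10 did not pass the test. The other EIF4B probe sets did not show that step between the lines, with 8.46 and 8.12 on 1 of them and 6.11 and 5.77 on another under vehicle. Arrays of bulk cells cannot tell apart fewer cells of a kind and less RNA per cell.

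Of 13506 genes tested, 2053 changed at 6 h in a fit of all 6 arrays with line and treatment as terms (limma, Benjamini-Hochberg adjusted p under 0.05), which is 15.2%. They comprised 920 genes that rose (6.81%) and 1133 that fell (8.39%). The median change over all tested genes was 0.03 and the median absolute change 0.13. A smaller set changed at least 2-fold, which is 1 log2 unit, in each line: 62 genes rose (0.459%) and 173 fell (1.28%). The number of changed genes depended on single arrays. It was 689 without the knockout vehicle array, 689 without the rescued vehicle array, 1032 without the knockout 6 h array and 814 without the rescued 6 h array.

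The falls were deeper than the rises were high. Among genes that changed by 2 to 3 log2 units, 30 fell and 12 rose, and beyond 3 units 13 fell and 2 rose. Most of the response was small: 517 rises and 535 falls were between 0.25 and 0.5. The share of changed genes also moved with signal. In genes with a mean signal of 5 to 6, 3.81% rose and 3.18% fell, against 9.50% and 11.71% of genes at 8 to 9 and 3.33% and 6.60% of genes at 10 and above.

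Both lines moved alike. Over all tested genes 10283 of 13506 (76.1%) had the same sign in each line, with a Pearson correlation across genes of 0.871 and a Spearman correlation of 0.713. This is a description across genes, which are not replicates, of arrays that were normalized together. Only 20 tested genes differed between the lines by 1 log2 unit or more in their change.

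**Figure D1:**
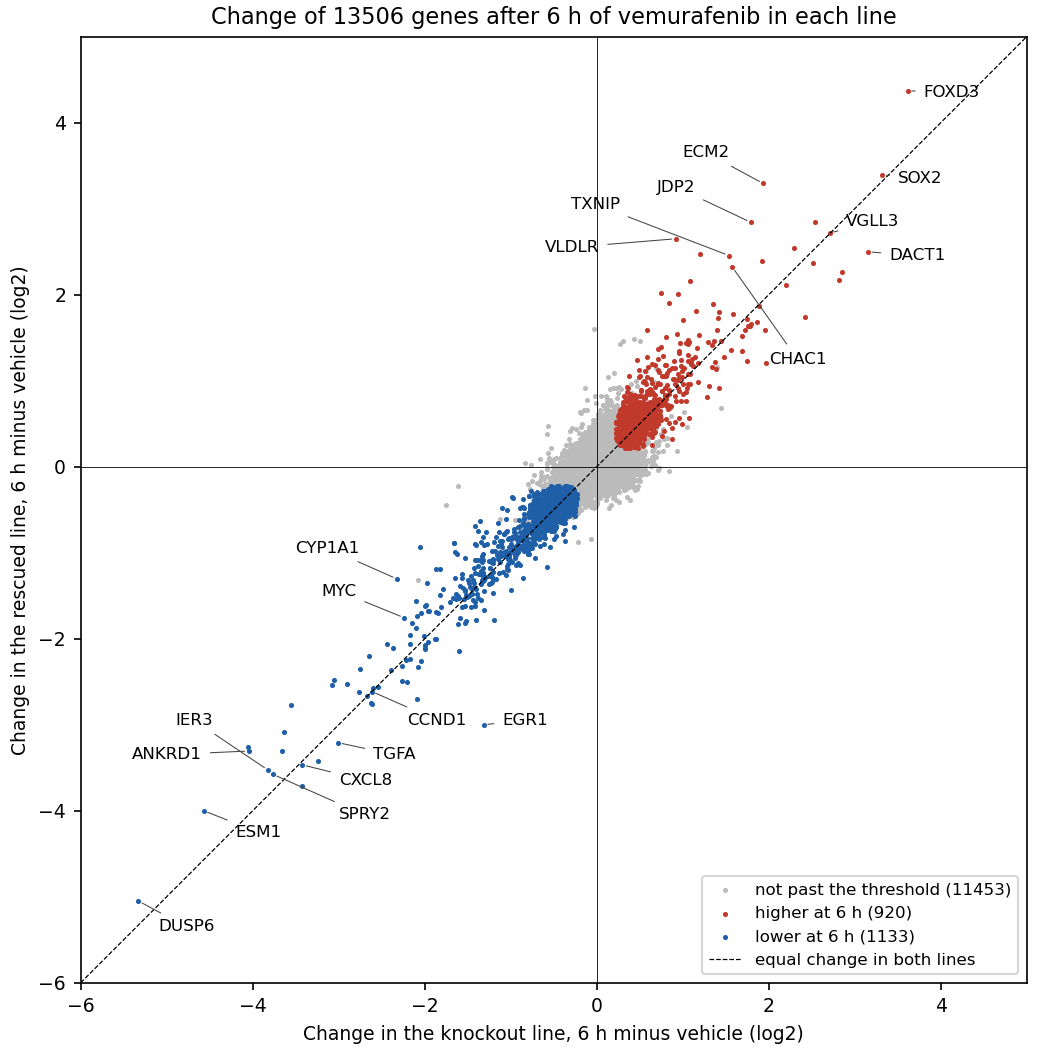
Change of each tested gene after 6 h, in log2 units, in the knockout line (x axis) and the rescued line (y axis), with each point a gene and the dashed line marking equal change. The 920 genes that rose and the 1133 that fell lie along the dashed line, from DUSP6 at -5.33 and -5.05 to FOXD3 at 3.62 and 4.37, while EGR1 and VLDLR stand off it. The test takes its error partly from disagreement between the lines at 6 h. Genes that passed thus tend to lie near the dashed line through how they were chosen.

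The brakes of ERK were the first group examined. Of 12 MAPK phosphatases tested, 7 fell and 1 rose, with a median change of -0.68. The most changed was DUSP6, the cytoplasmic phosphatase that acts on ERK itself. It read 10.10 and 9.96 under vehicle in the knockout and rescued lines and 4.77 and 4.91 at 6 h, a change of -5.19 (SE 0.11, limma adjusted p = 0.000117). Its other tested probe sets fell by 6.72 and 6.90. Both 6 h readings of the brightest probe set were below 5 and lay under those of vehicle. DUSP4, a nuclear phosphatase of the family, read 10.35 and 10.32 under vehicle and 7.45 and 7.80 at 6 h. DUSP5, its nuclear relative that is selective for ERK, read 9.27 and 9.25 and then 6.67 and 6.68. Each fell by a like amount in both lines.

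The phosphatases fell in order of size from DUSP6 through DUSP4 (-2.71), DUSP5 (-2.59) and DUSP1 (-1.23) to DUSP2 (-0.87), DUSP7 (-0.71) and DUSP10 (-0.65). DUSP16, which acts on the stress kinases JNK and p38, rose by 0.50 (SE 0.11, limma adjusted p = 0.0381). DUSP3, DUSP8, DUSP9 and DUSP14 had changes between -0.20 and 0.08 and did not pass. The list had 7 falls whichever array was left out, and no rise when any 1 of the 4 arrays was.

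Among Sprouty and SPRED proteins, 5 of 7 tested fell and none rose, with a median of -1.51, and each of the 5 fell at least 2-fold in both lines. SPRY2 read 10.70 and 10.42 under vehicle and 6.93 and 6.85 at 6 h. SPRY4 read 7.92 and 8.51 and then 5.83 and 5.82, so the lines differed under vehicle and met at 6 h. SPRED1 and SPRED2, membrane proteins that bring the RAS inhibitor neurofibromin to the plasma membrane, changed by -1.51 and -1.87. ERRFI1, an inhibitor of the EGF receptor, changed by -1.44. SPRY1 and SPRED3 had changes of -0.28 and -0.23 and did not pass.

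The kinases and adaptors of the pathway moved little. Of 16 tested members of the RAS, RAF, MEK and ERK core, 1 rose and 1 fell, a share near that of all genes, and the median was -0.04. SOS1, an exchange factor that loads RAS with GTP, rose by 0.46 (SE 0.11, limma adjusted p = 0.0477), and RASA2, which turns RAS off, fell by 0.68 (SE 0.07, adjusted p = 0.00462). MAP2K1 and MAPK3 had changes of -0.27 and 0.19 and did not pass.

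**Figure D2:**
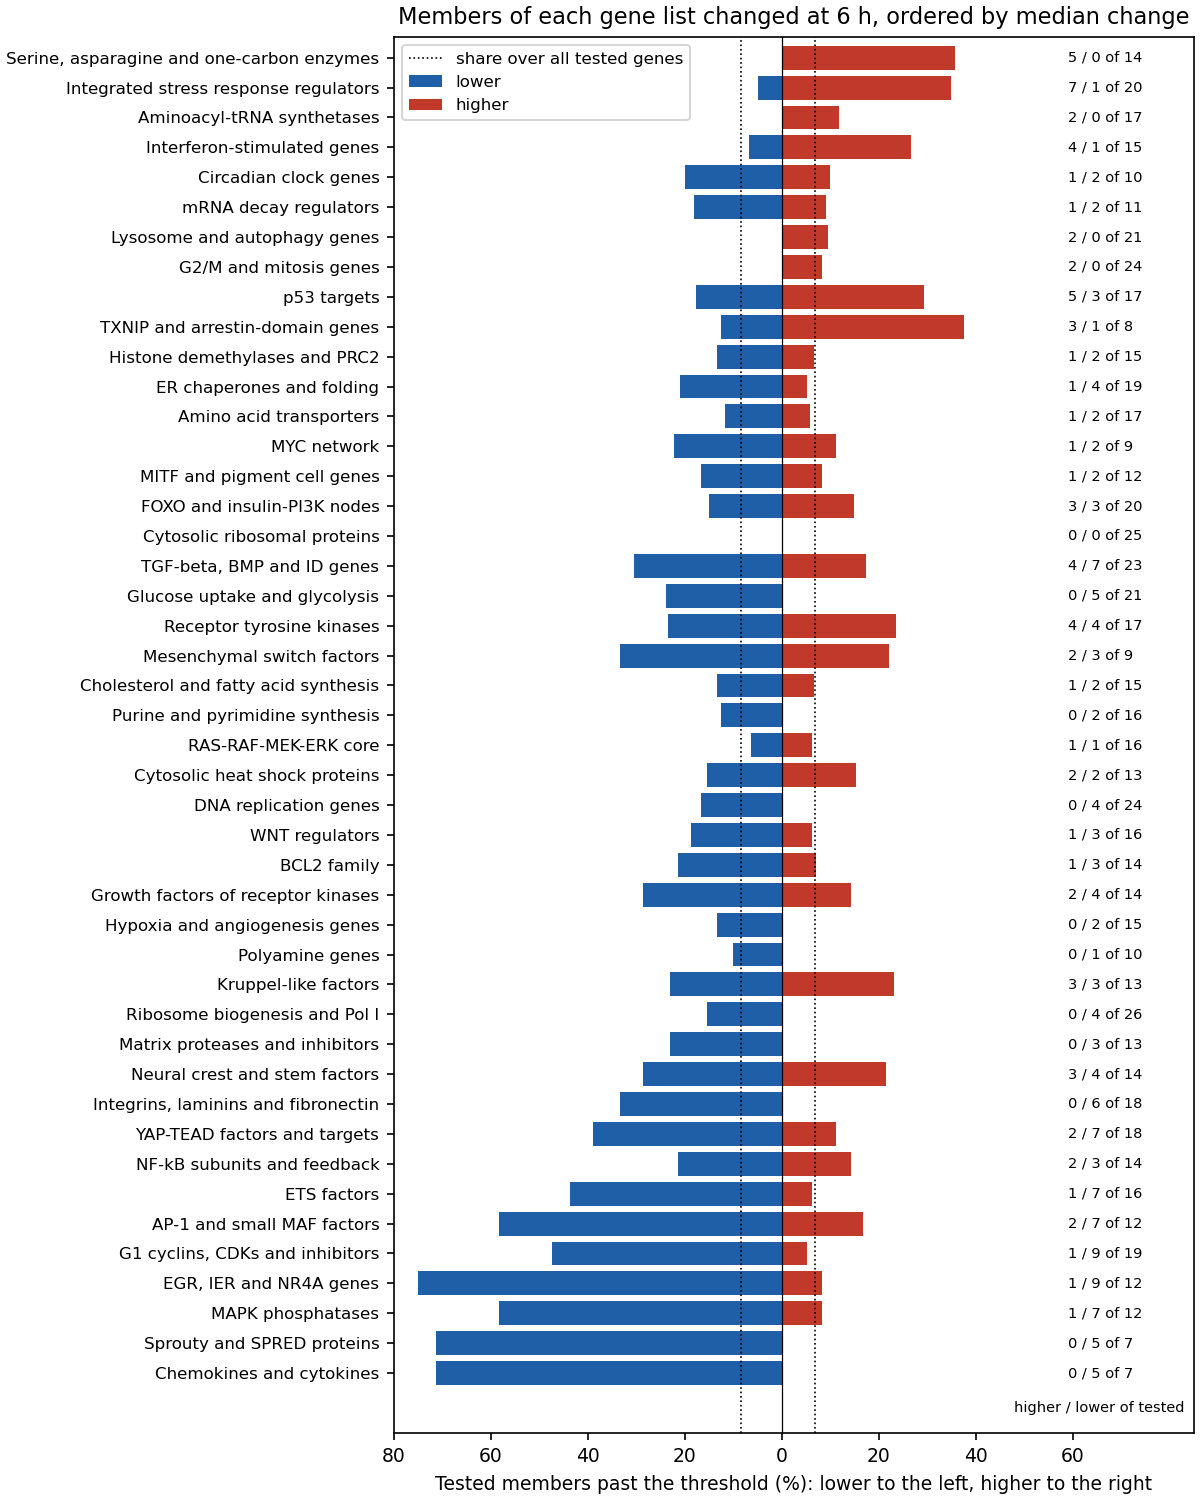
Percent of the tested members of each gene list that fell (left) or rose (right) at 6 h, ordered by the list's median change, with dotted lines at the shares over all tested genes (8.39% and 6.81%). The lists of chemokines, Sprouty proteins, MAPK phosphatases and EGR, IER and NR4A genes lie at the bottom with 5 of 7, 5 of 7, 7 of 12 and 9 of 12 members lower, and the amino acid enzymes lie at the top with 5 of 14 higher.

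Transcription factors downstream of ERK were next. ETS factors bind purine-rich sites, and the PEA3 group ETV1, ETV4 and ETV5 is a classic output of ERK. Of 16 ETS genes tested, 7 fell and 1 rose (median -0.28). ETV5 read 9.09 and 9.14 under vehicle and 5.43 and 5.83 at 6 h. ETV1 read 8.77 and 8.71 and then 5.72 and 6.23. ETV4, the remaining member of that group, read 9.82 and 9.79 and then 8.70 and 8.80, a smaller step of -1.06 (SE 0.10). ELK3 (-1.72), FLI1 (-1.51) and ETV6 (-1.17) fell as well. ELF1 rose by 0.64 (SE 0.11, limma adjusted p = 0.0191), while ETS1 (-0.40), ETS2 (-0.15) and ELK1 (-0.16) did not pass.

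AP-1 is a dimer of FOS and JUN family proteins, and small MAF proteins pair with related partners. Of 12 such genes tested, 7 fell and 2 rose (median -0.41), and the list had 3 falls without either 6 h array and 4 without either vehicle array. MAFF read 10.26 and 10.48 under vehicle and 6.20 and 7.22 at 6 h, with the knockout line lower at 6 h. FOSL1, the FOS relative that accumulates under sustained ERK signalling, read 10.26 and 10.59 and then 7.71 and 8.03. FOS itself was dim, at 5.58 and 5.74 and then 4.82 and 4.81. The other members moved less or the opposite way. JUN and JUNB changed by -0.45 and -0.41, and JUND rose by 0.46 (SE 0.09, limma adjusted p = 0.0278). The other tested probe sets of JUND had changes of 0.17, 0.02 and 0.005 and did not pass. ATF3, a stress-induced member of the wider family, rose by 1.38 (SE 0.08, adjusted p = 0.000813), from 7.36 and 7.67 to 8.84 and 8.95, while its other tested probe sets had changes of 0.93, which passed, and 0.34, which did not.

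Immediate early genes are switched on within minutes of a growth signal without new protein synthesis. Of 12 tested in the EGR, IER and NR4A list, 9 fell and 1 rose (median -0.61), and the list had 6 falls when any 1 of the 4 arrays was left out. IER3 read 11.37 and 11.17 under vehicle and 7.55 and 7.64 at 6 h. EGR1 stood apart between the lines, at 6.43 and 8.09 under vehicle and 5.12 and 5.09 at 6 h, which gives changes of -1.31 and -3.0 (mean -2.16, SE 0.38, limma adjusted p = 0.0223). The difference between those changes lies in the vehicle arrays, since the 6 h readings of EGR1 were nearly equal. EGR3 read 8.17 and 8.38 and then 6.18 and 6.27, nearly the same step in both lines. PHLDA1 (-2.42), CSRNP1 (-0.74) and IER2 (-0.73) fell, and NR4A3 rose from 4.92 in both lines to 5.30 and 5.32.

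Kruppel-like factors were split, with 3 of 13 tested higher and 3 lower. KLF2, a factor known from endothelial cells, fell by 1.66, KLF6 by 0.95 and KLF10 by 0.60, while KLF5 (0.93), KLF3 (0.66) and KLF13 (0.45) rose. KLF4 had changes of -1.76 and -0.45 and did not pass (limma adjusted p = 0.102). MYC, the growth regulator whose mRNA and protein are both short-lived, read 9.27 and 9.18 under vehicle and 7.04 and 7.43 at 6 h (change -2.0, SE 0.16). Its partner MAX fell by 0.32, and MXD3, which competes with MYC for MAX, rose by 0.76 (SE 0.08, limma adjusted p = 0.00547).

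Among growth factors, most of them ligands of receptor kinases, 4 of 14 tested fell and 2 rose, with a median of -0.09. TGFA, a ligand of the EGF receptor, read 10.95 and 11.16 under vehicle and 7.94 and 7.95 at 6 h. HBEGF, another ligand of that receptor, read 8.0 and 8.32 and then 6.40 and 6.18. LIF, an interleukin-6 family cytokine whose receptor is not a kinase, fell by 1.77 and VEGFC, the lymphatic growth factor, by 1.0. PDGFC and FGF1 rose by 0.74 (SE 0.08, limma adjusted p = 0.00562) and 0.43 (SE 0.07, adjusted p = 0.0172).

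Receptor tyrosine kinases went both ways, with 4 of 17 tested higher and 4 lower and a median of 0.00. EPHA2, an ephrin receptor, read 10.46 and 10.49 under vehicle and 7.84 and 7.74 at 6 h. ROR1, a WNT5A receptor, changed by -1.99 and MET, the receptor of hepatocyte growth factor, by -0.58. In the other direction, ERBB3, a receptor of neuregulin that signals through PI3K, read 9.93 and 9.79 and then 10.73 and 10.70. DDR2, a collagen receptor, read 7.50 and 7.77 and then 8.08 and 9.05, a larger step in the rescued line. Its other tested probe sets had changes of 0.75 and 0.78, which did not pass, and 0.59, which did. PDGFRB rose by 0.65 and ERBB2, the partner of ERBB3, by 0.44. The list had 1 rise without the knockout vehicle array and 1 without the rescued 6 h array, and 2 falls without the knockout vehicle array or the knockout 6 h array. EGFR (0.00) and AXL (0.05) did not pass.

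Secreted inflammatory factors were the list with the lowest median, -2.68 over the 7 of 18 genes bright enough to test. Of these, 5 fell and none rose, each at least 2-fold in both lines. The other 11 had a mean below 5 over the 6 arrays, and the median does not stand for them. CXCL1, a neutrophil chemokine, read 10.37 and 9.82 under vehicle and 6.94 and 6.10 at 6 h. CXCL8, interleukin-8, read 7.37 and 7.68 and then 3.95 and 4.22, below the filter of 5. IL24, a cytokine of the interleukin-10 family, read 8.61 and 9.65 and then 6.00 and 6.89. The lines thus differed in level of IL24 under both treatments and changed by a like amount, -2.62 and -2.75. PTX3, a soluble pattern recognition protein, fell by 3.16 and IL11 by 1.67. TLR4, the receptor for bacterial lipopolysaccharide, read 8.93 and 8.98 and then 5.29 and 5.90, on a probe set whose name marks that it may also match other transcripts.

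NF-kB genes changed in both directions. Of 14 tested, 3 fell (IRAK2, BIRC2 and NFKBIE, by 0.61, 0.48 and 0.35) and 2 rose, REL by 0.42 and the inhibitor NFKBIA by 0.55. The subunits NFKB1, NFKB2, RELA and RELB had changes of -0.36 to -0.14 and did not pass. The list had no rise and at most 1 fall when any 1 of the 4 arrays was left out.

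The promoter of CXCL8 and those of some other leading genes follow, chosen because they hold known motifs. The changes above are in mRNA, and the letters show which motifs lie close to the start sites. The promoters are RefSeq sequences of GRCh38.p14, 250 bases before to 50 after a start, 5' to 3' on the gene's strand, with motif matches in capitals. CXCL8 (chr4:73740319-73740618, plus strand) holds an AP-1 motif TGACTCA at -137 and a TATA box at -31, counted from the start site to the motif's first base. MAFF (chr22:38201744-38202043, plus strand), which fell, and FOXD3 (chr1:63322317-63322616, plus strand), which rose, each hold a cAMP response element TGACGTCA, at -54 and -72, and an E-box CACGTG, at -196 and -56. CHAC1 (chr15:40953221-40953520, plus strand) and JDP2 (chr14:75427772-75428071, plus strand, a later of its starts in the table) rose and hold a CEBP-ATF composite motif, at -209 on the opposite strand and at -16. The other MAFF start lacks the cAMP response element, and the other JDP2 starts lack the composite motif. Other leading genes, among them DUSP6, SPRY2, TLR4 and SOX2, hold none of the motifs searched.
CXCL8: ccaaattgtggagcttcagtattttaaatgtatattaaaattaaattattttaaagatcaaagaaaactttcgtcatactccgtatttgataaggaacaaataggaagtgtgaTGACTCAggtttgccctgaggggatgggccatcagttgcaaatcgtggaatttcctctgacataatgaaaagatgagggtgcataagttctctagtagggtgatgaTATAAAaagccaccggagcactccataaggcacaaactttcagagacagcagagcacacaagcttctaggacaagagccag
MAFF: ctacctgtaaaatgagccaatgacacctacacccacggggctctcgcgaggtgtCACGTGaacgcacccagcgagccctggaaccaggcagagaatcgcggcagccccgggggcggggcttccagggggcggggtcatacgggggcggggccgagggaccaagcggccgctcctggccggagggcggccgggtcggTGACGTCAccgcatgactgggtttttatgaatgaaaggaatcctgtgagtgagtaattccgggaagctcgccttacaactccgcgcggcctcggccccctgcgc
FOXD3: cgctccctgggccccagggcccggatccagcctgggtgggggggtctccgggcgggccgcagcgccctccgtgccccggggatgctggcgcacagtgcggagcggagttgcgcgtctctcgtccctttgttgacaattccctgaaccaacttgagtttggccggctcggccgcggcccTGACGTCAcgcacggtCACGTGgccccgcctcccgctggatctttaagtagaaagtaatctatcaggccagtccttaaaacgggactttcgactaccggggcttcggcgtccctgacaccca
CHAC1: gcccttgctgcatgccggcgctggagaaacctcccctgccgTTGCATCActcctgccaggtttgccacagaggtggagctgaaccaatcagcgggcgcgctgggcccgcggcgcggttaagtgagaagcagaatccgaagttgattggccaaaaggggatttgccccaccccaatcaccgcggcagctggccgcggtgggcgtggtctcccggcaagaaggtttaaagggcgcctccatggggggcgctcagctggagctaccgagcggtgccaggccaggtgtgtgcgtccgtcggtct
JDP2: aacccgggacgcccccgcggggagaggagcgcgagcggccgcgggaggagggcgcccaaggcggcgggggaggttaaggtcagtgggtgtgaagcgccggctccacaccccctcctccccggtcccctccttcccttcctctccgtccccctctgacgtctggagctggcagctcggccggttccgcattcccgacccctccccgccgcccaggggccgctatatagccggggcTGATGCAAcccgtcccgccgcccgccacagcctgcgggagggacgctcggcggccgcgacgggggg

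Such motifs are common, and their shares set these examples in place. Both strands were searched in 35116 promoters of that length, and no match printed above overlaps another. The CEBP-ATF motif TGATGNAA was in 3.62% of all promoters and 2.17% of those of tested genes. It was in 6 of 80 promoters (7.5%) of the genes that rose at least 2-fold in each line, those of ATF3, CHAC1, JDP2, MYLK, PLCE1 and S100P, and in 5 of 206 (2.43%) of those that fell. The AP-1 motif TGANTCA was in 7.71% of all promoters, 5.61% of those of tested genes, 7.28% of the falling set and 7.5% of the rising set. In the same order, the cAMP response element was in 1.85%, 2.66%, 3.88% and 1.25% and the E-box in 7.26%, 9.23%, 9.71% and 5%. The TATA box, TATAAA, was in 11.5%, 6.68%, 8.74% and 12.5%. The ETS motif CCGGAAG was in 10.3% of all promoters, 15.8% of those of tested genes, 5.83% of the falling set and 3.75% of the rising set. The forkhead motif TGTTTAC was in 3.42%, 2.67%, 3.88% and 5% of these sets, and the CArG box of serum response factor in 1.29%, 1.17%, 1.94% and 2.5%. A match is a run of letters and not evidence of binding, and several starts of 1 gene are counted separately.

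Cell cycle genes were taken by phase. Of 19 tested G1 cyclins, CDKs and inhibitors, 9 fell and 1 rose (median -0.41), and the list had 4 falls without the knockout vehicle array and 6 without the rescued vehicle array or the knockout 6 h array. CCND1, the cyclin that ERK induces to start the cycle, read 10.98 and 11.40 under vehicle and 8.37 and 8.79 at 6 h, the same step of -2.61 in both lines. CDC25A, the phosphatase that activates CDK2, fell by 0.94, CCNE2 by 0.77, CDK6 by 0.68 and CCNE1 by 0.58. CDKN2D, a CDK4 and CDK6 inhibitor, also fell, by 1.10. The 1 rise was CDKN1B, the inhibitor p27, from 9.59 and 9.47 to 9.99 and 9.91. CDKN1A (-0.04) and CDK4 (0.16) did not pass.

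Of 24 DNA replication genes tested, 4 fell (MCM10, CLSPN, ORC6 and RFC3, by 0.28 to 0.37) and none rose, and the list had none when any 1 of the 4 arrays was left out. MCM2 to MCM7 had changes between -0.06 and 0.08. Of 24 genes of G2 and mitosis, 2 rose, CDC25C by 0.40 and KIF20A by 0.45, and none fell. The shares changed were 16.7% of the replication list and 8.33% of the mitosis list, against 15.2% of all tested genes either way and 8.39% that fell. At 18 h against the same vehicle arrays, MCM10 had changes of -1.92 and -2.0 and CLSPN of -1.61 and -1.64 in the knockout and rescued lines.

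Genes of the translation machinery moved little. None of 25 cytosolic ribosomal protein genes passed the test, and their changes ran from -0.03 to 0.11. Of 26 genes of ribosome biogenesis, 4 fell (PNO1, LYAR, WDR43 and RRS1, by 0.36 to 0.55), with a median of -0.15, and the list had none without either vehicle array or the rescued 6 h array and 2 without the knockout 6 h array. Purine and pyrimidine synthesis had 2 of 16 lower, PPAT, the first committed enzyme of purine synthesis, by 0.52, and CTPS1, which makes CTP, by 0.43. Among polyamine genes 1 of 10 fell, SMOX, by 0.52, and ODC1, the rate-limiting enzyme, had a change of -0.02. The share changed in ribosome biogenesis, 15.4%, was near the 15.2% of all tested genes that changed either way, of which 8.39% fell. The shares changed in the nucleotide and polyamine lists, 12.5% and 10%, were below that 15.2%.

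In the BCL2 family 3 of 14 tested genes fell and 1 rose. MCL1, a short-lived guard against apoptosis, read 11.39 and 11.59 under vehicle and 10.08 and 10.27 at 6 h, the same change of -1.31 in both lines. BCL2L1 fell by 0.64 and BCL2 by 0.41 (0.04 and -0.05 on its other tested probe sets), and HRK, a BH3-only killer protein, rose from 5.07 and 5.09 to 5.53 and 5.82. BCL2L11, which encodes BIM, had a change of -0.03. Targets of p53 had 5 of 17 higher and 3 lower. TP53INP1, an autophagy and apoptosis regulator, rose by 1.24 (0.05 on its other tested probe set) and SESN1 by 0.57, while PLK3 (-1.27, with -0.19 and -0.11 on other probe sets), AEN (-1.02) and TNFRSF10B (-0.45) fell. The list had 1 to 3 rises when any 1 of the 4 arrays was left out, and the best known p53 targets CDKN1A (-0.04) and MDM2 (0.07) did not pass.

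Of 21 tested genes of glucose uptake and glycolysis 5 fell and none rose, and the median was 0.00. SLC2A3, a high-affinity glucose transporter, read 8.68 and 8.96 under vehicle and 6.47 and 6.45 at 6 h. SLC2A1, the widespread transporter GLUT1, read 9.27 and 9.44 and then 8.02 and 8.17. PFKFB3, which makes the activator of phosphofructokinase, changed by -1.02 and HK2, the inducible hexokinase, by -0.74. The enzymes from GPI to LDHA had changes between -0.31 and 0.16 and did not pass. Among hypoxia and angiogenesis genes 2 of 15 fell, STC1 by 1.64 and ANGPTL4 by 0.88, and HIF1A (0.01) and VEGFA (-0.01) did not pass. The share of that list that changed was 13.3%, against 15.2% of all tested genes.

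TXNIP, a protein that restrains glucose uptake and binds thioredoxin, rose in both lines. It read 8.94 and 7.88 under vehicle and 10.48 and 10.34 at 6 h (change 2.0, SE 0.24, limma adjusted p = 0.00789). Its relatives ARRDC3 and ARRDC4 rose by 1.61 and 0.74, which makes 3 of 8 of that list higher, and MLX, a partner of the glucose-sensing factor MondoA, fell by 0.63. Of 20 tested nodes of insulin, PI3K and FOXO signalling, 3 rose and 3 fell. CCNG2, an unusual cyclin that FOXO factors induce, read 7.19 and 6.71 and then 8.53 and 8.61. FOXO3 rose by 0.54 and SESN1 by 0.57, and the pseudokinase TRIB2 fell from 8.33 and 8.61 to 5.96 and 6.50, with TRIB1 (-0.86) and IRS2 (-0.35).

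**Figure D3:**
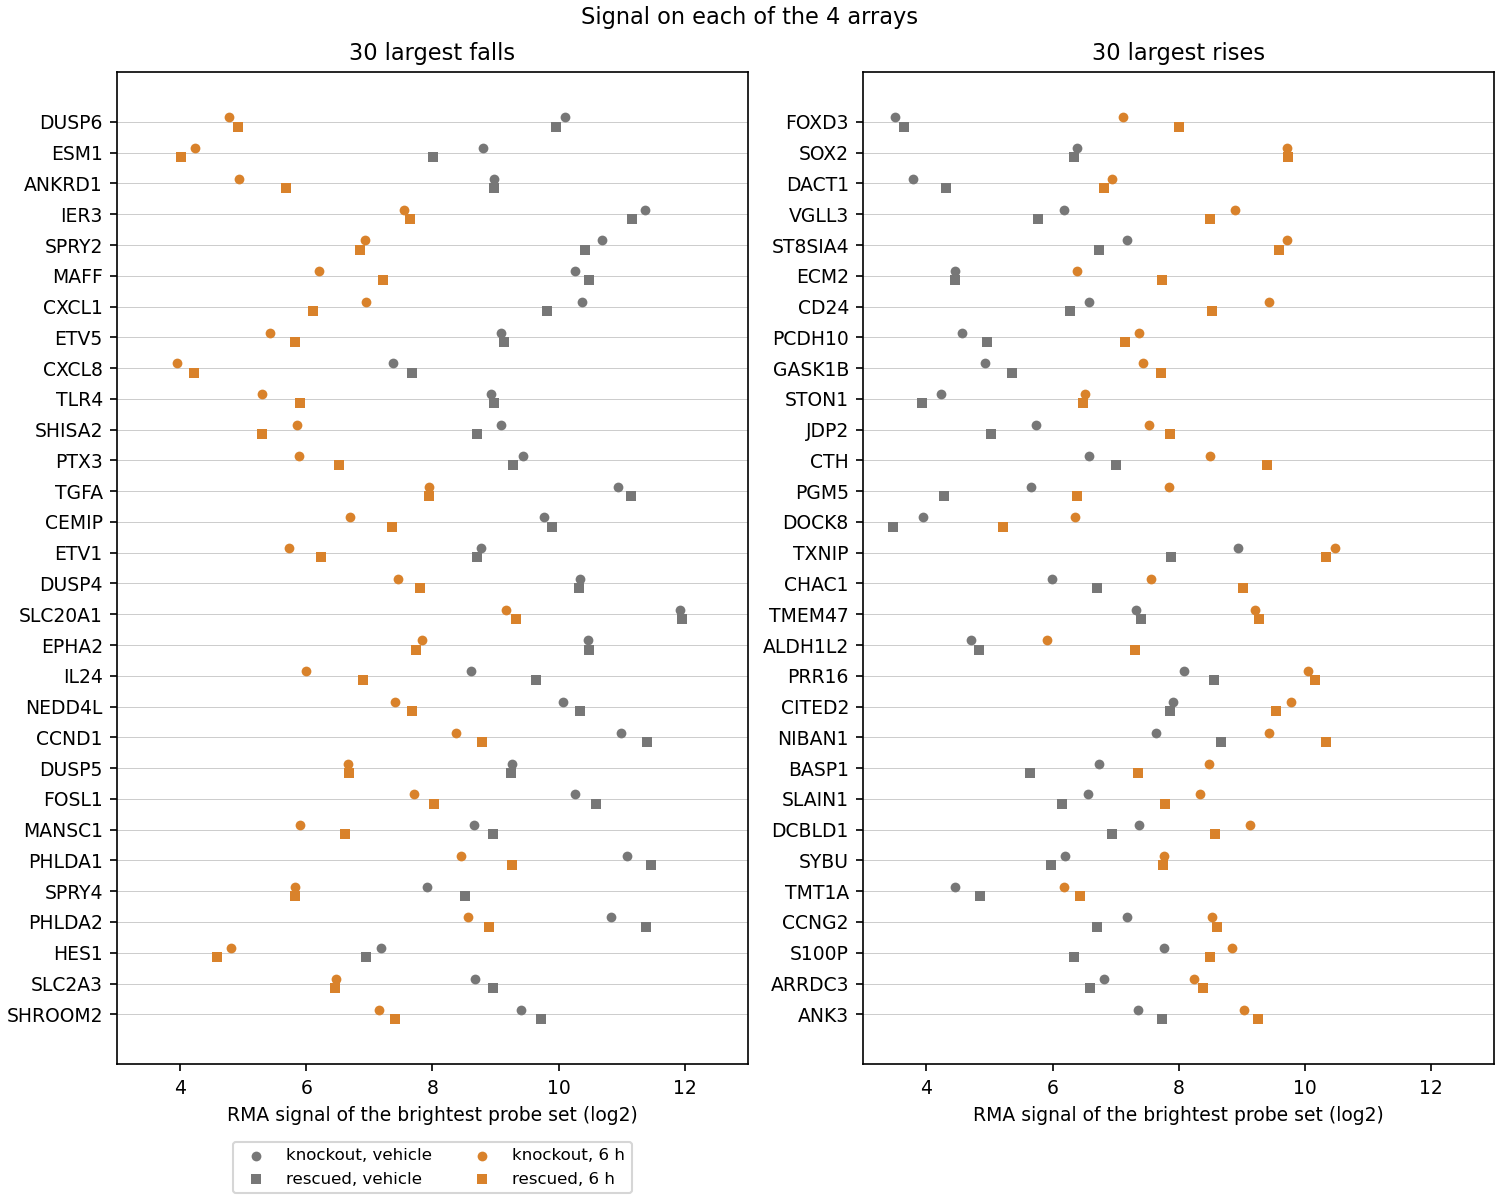
Log2 RMA signal on the 4 arrays for the 30 genes with the largest falls (left) and the 30 with the largest rises (right) among genes that changed at least 2-fold in each line. Circles are the knockout line and squares the rescued line, grey is vehicle and orange is 6 h. The colours do not overlap for any of the 60 genes, which is how they were chosen, and several rising genes such as FOXD3 and STON1 start near 4 under vehicle.

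Some of the largest rises were in genes that were dim under vehicle. Of the 62 genes that rose at least 2-fold in each line, 13 read below 5 on both vehicle arrays and so passed the filter only through the drug arrays, against 5 of 173 falling genes that were below 5 on both 6 h arrays. FOXD3, a neural crest factor, read 3.50 and 3.64 under vehicle and 7.11 and 8.01 at 6 h. SOX2, a stem cell factor, read 6.39 and 6.34 and then 9.72 and 9.74, a change of 3.32 and 3.39. SOX4 rose from 7.69 and 7.68 to 9.06 and 9.14, while 2 of its other 4 tested probe sets did not pass (0.21 and 0.32). These 3 were the rises among 14 tested neural crest and stem factors, and 4 fell, LEF1 (-0.78), SOX10 (-0.63), NGFR (-0.62) and MSX1 (-0.34). The vehicle levels of FOXD3 were below the filter of 5, and the other tested probe sets of SOX2 rose by 1.94, 1.54 and 0.48, so the size of neither rise is firm.

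Other leading rises concern the cell surface and signalling. VGLL3, a cofactor of TEAD factors, read 6.19 and 5.77 under vehicle and 8.90 and 8.49 at 6 h. DACT1, a regulator of WNT signalling, read 3.78 and 4.32 and then 6.94 and 6.81. ST8SIA4, which builds polysialic acid, read 7.19 and 6.74 and then 9.73 and 9.59. CD24, a surface sialoglycoprotein, read 6.57 and 6.27 and then 9.43 and 8.53, on a probe set that may match other transcripts. PCDH10, a protocadherin, read 4.57 and 4.97 and then 7.38 and 7.14, and ECM2, a matrix protein, 4.46 and 4.45 and then 6.40 and 7.74. Thus ECM2 rose more in the rescued line, by 3.29 against 1.94. CITED2, a regulator of the coactivators CBP and p300, read 7.92 and 7.86 and then 9.78 and 9.55 (change 1.77, SE 0.07), while its other tested probe sets had changes of 1.67, which passed, and -0.07, which did not.

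Among YAP and TEAD genes, which respond to cell shape and density, 7 of 18 tested fell and 2 rose, VGLL3 and AJUBA (0.80). ANKRD1, a classic YAP target, read 8.97 and 8.98 under vehicle and 4.93 and 5.68 at 6 h. F3, tissue factor, fell by 2.25, WWTR1, which encodes TAZ, by 1.14 and CCN1 by 0.75, while CCN2 (-0.22) and YAP1 (-0.31) did not pass. The list had 2 to 4 falls when any 1 of the 4 arrays was left out, fewest without the rescued vehicle array.

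Genes of TGF-beta and BMP signalling went both ways. Of 23 tested, 7 fell and 4 rose. The falls included the activin subunit INHBA (-1.34), the receptor TGFBR2 (-1.19), the mediator SMAD3 (-1.01) and the repressor SKIL (-0.76). The rises were ID2, ID3 and ID1, inhibitors of helix-loop-helix factors and outputs of BMP signalling, and SMAD9. ID2 read 6.66 and 6.84 under vehicle and 8.35 and 8.19 at 6 h, and ID1 read 10.92 and 10.81 and then 11.40 and 11.45. The list had 1 rise without the rescued vehicle array and 2 without the rescued 6 h array. In the WNT list 3 of 16 fell (FZD7 by 1.03, LEF1 by 0.78 and ZNRF3 by 0.62) and 1, DACT1, rose.

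Factors of the mesenchymal switch went in opposite directions. ZEB1 read 8.98 and 9.03 under vehicle and 8.04 and 8.05 at 6 h, and ZEB2, its paralog, 6.72 and 7.0 and then 7.78 and 8.23. SNAI1 (-0.57) and TWIST2 (-0.51) fell and TCF4 (0.70) rose, in all 2 of 9 higher and 3 lower. Other tested probe sets of TCF4 had changes of 0.66 and 0.53, which passed, and 0.44, 0.43, 0.40 and 0.54, which did not. Pigment cell genes had 1 of 12 higher and 2 lower. MITF, the pigment cell regulator, read 8.50 and 8.10 and then 9.38 and 9.24, while its pigment targets PMEL (0.02) and TYR (0.19) did not pass. EDNRB, the endothelin receptor of melanocytes, fell by 0.58 and RAB38, which sorts pigment enzymes, by 0.36.

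Adhesion and protease genes fell or stayed. Of 18 integrin, laminin and fibronectin genes 6 fell and none rose, led by ITGA2 (-1.11) and ITGB3 (-0.99), and the list had 1 to 3 falls when any 1 of the 4 arrays was left out, fewest without the knockout vehicle array. The other tested probe sets of ITGB3 did not pass (-0.27, -0.28 and -0.45). Of 13 matrix proteases and inhibitors 3 fell: PLAUR, the urokinase receptor, by 2.06, PLAT, tissue plasminogen activator, by 1.53, and TIMP3 by 0.71 (2.63 on the most changed of its other probe sets). CEMIP, a hyaluronan-degrading protein outside these lists, read 9.77 and 9.90 under vehicle and 6.70 and 7.36 at 6 h.

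Some genes of the integrated stress response rose. In that response, phosphorylation of eIF2 favours translation of ATF4, which induces genes of amino acid supply. Of 20 regulators and targets tested, 7 rose and 1 fell (median 0.36), and of 14 enzymes of serine, asparagine and one-carbon metabolism 5 rose and none fell (median 0.67). CHAC1, which degrades glutathione, read 5.99 and 6.70 under vehicle and 7.57 and 9.02 at 6 h (change 1.95, SE 0.21, limma adjusted p = 0.00535). JDP2, a repressor of the AP-1 and ATF families, read 5.74 and 5.02 and then 7.54 and 7.87 (change 2.32, SE 0.27, adjusted p = 0.00709). DDIT3, the factor CHOP, read 7.95 and 8.55 and then 8.98 and 9.99. ATF4 mRNA itself was bright and rose less, from 12.02 and 11.71 to 12.43 and 12.54 (change 0.62, SE 0.12).

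Among the 5 enzymes that rose, CTH, which makes cysteine from cystathionine, read 6.57 and 7.0 under vehicle and 8.50 and 9.40 at 6 h. ASNS, asparagine synthetase, read 9.19 and 9.35 and then 10.02 and 11.26. PSPH, the last enzyme of serine synthesis, read 8.42 and 8.50 and then 9.58 and 10.32. PCK2 rose by 1.48 and ALDH1L2, a mitochondrial folate enzyme, by 1.84, against 0.77 (limma adjusted p = 0.0506) on the other tested probe set of ALDH1L2. PHGDH, PSAT1 and CBS had changes of 0.61, 0.73 and 0.98 and did not pass.

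All 12 risers of these lists rose more in the rescued line, where the median rise was 1.96 against 0.99 for the knockout cells. The count depends on list membership: stress-induced ATF3, placed with the AP-1 factors, rose more in the knockout line, by 1.48 against 1.28. A tilt toward the rescued line also ran through the rises at large. Of all 920 genes that rose, 637 rose more in the rescued line, with medians of 0.50 there and 0.42 in the knockout line. With 1 array per line and treatment this difference between the lines has no test. VLDLR, the very low density lipoprotein receptor, was the widest apart, at 4.91 and 5.08 under vehicle and 5.83 and 7.73 at 6 h. The counts also rest on the rescued 6 h array: without it, 3 of the regulators and 2 of the enzymes rose. Without the knockout vehicle array 10 and 8 rose. In the 35 falling genes of the phosphatase, Sprouty, ETS, AP-1 and immediate early lists, 22 fell more in the knockout line and 13 more in the rescued line, with medians of -1.39 and -1.19. Among all 1133 genes that fell, these counts were 614 and 519, with medians of -0.54 and -0.50.

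**Figure D4:**
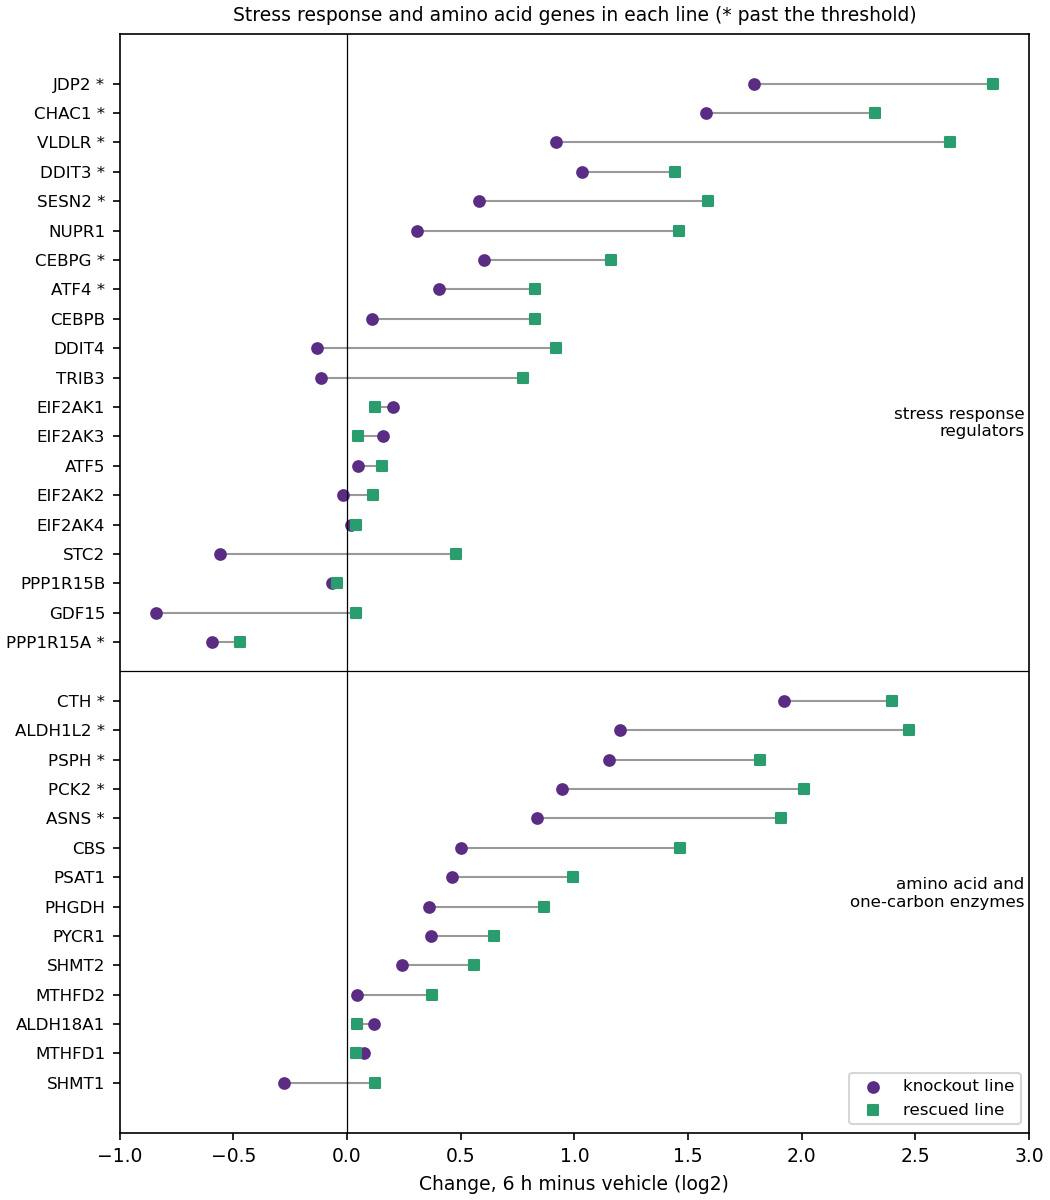
Change at 6 h, in log2 units, of each tested stress response regulator (top) and amino acid or one-carbon enzyme (bottom) in the knockout line (circles) and the rescued line (squares), with an asterisk for genes that passed the test. The squares lie to the right of the circles for all 12 rising genes, and STC2 has a circle at -0.56 and a square at 0.48. ATF3, listed with the AP-1 factors, is not shown.

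Neighbouring stress pathways moved less. Of 17 aminoacyl-tRNA synthetases 2 rose, AARS1 by 0.69 and LARS1 by 0.29, with a list median of 0.27. That is 11.8% changed, against 15.2% of all tested genes. Of 17 amino acid transporters 1 rose, SLC38A2 by 0.46, and 2 fell, the glutamate transporter SLC1A1 by 1.24 and SLC36A1 by 0.51. SLC7A11, the cystine transporter, had changes of 0.27 and 1.43 in the knockout and rescued lines and did not pass. Of 19 endoplasmic reticulum chaperones and folding genes 4 fell (EDEM1, MANF, SDF2L1 and DNAJB9, by 0.39 to 0.50) and HERPUD1 rose by 0.57, and HSPA5, the main chaperone of that compartment, had a change of -0.07. The list had no fall without either vehicle array or the knockout 6 h array, and 1 without the rescued 6 h array. Among 13 cytosolic heat shock genes BAG3 (-0.86) and DNAJB1 (-0.43) fell and DNAJB4 (0.76) and HSPB8 (0.66) rose. PPP1R15A, which reverses eIF2 phosphorylation, fell by 0.53 and was the 1 fall among the regulators.

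Several smaller programmes showed isolated changes. Of 15 interferon-stimulated genes 4 rose and 1 fell: IFIT1, an RNA sensor, read 5.46 and 5.49 under vehicle and 6.45 and 6.53 at 6 h, MX1, IFI44 and ISG15 rose by 0.49, 0.38 and 0.35, and ISG20 fell by 0.61. The list had 1 rise without either vehicle array and 2 without either 6 h array. Of 10 clock genes BHLHE40 (-1.49) and CRY1 (-0.62) fell and DBP (1.14, with -0.05 on its other probe set) rose. ZFP36L2, an mRNA decay factor, read 11.01 and 10.87 and then 9.62 and 9.40, BTG3 fell by 0.68 and TOB2 rose by 0.30, out of 11 mRNA decay genes. Lysosome and autophagy genes had 2 of 21 higher, ULK1 by 0.51 and HEXA by 0.27, which is 9.52% changed against 15.2% of all tested genes. In cholesterol and fatty acid synthesis INSIG1 (-0.50) and ELOVL6 (-0.49) fell and SCD (0.46) rose, out of 15. Histone demethylases and PRC2 genes had 3 of 15 changed, KDM2B (-0.32), EED (-0.29) and KDM4A (0.37). The lists of lysosome genes, histone demethylases and mitosis genes had no changed member when any 1 of the 4 arrays was left out.

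Over all 45 lists, 684 genes were tested, of which 73 rose (10.7%) and 146 fell (21.3%), against 6.81% and 8.39% of all tested genes. The lists hold 5.06% of tested genes and 66 of the 235 genes (28.1%) that changed at least 2-fold in each line. They were chosen with earlier results known, so these shares are a description only. Leading falls outside them were ESM1, an endothelial proteoglycan, on a probe set that may match other transcripts, at 8.81 and 8.01 and then 4.24 and 4.01, and SHISA2, a WNT and FGF antagonist, at 9.08 and 8.71 and then 5.85 and 5.30. SLC20A1, a phosphate transporter, read 11.93 and 11.96 and then 9.16 and 9.33, and HES1, the Notch target, 7.19 and 6.94 and then 4.80 and 4.58. NEDD4L, a ubiquitin ligase, read 10.07 and 10.34 and then 7.40 and 7.68, and 2 of its other 3 tested probe sets passed (-2.21 and -2.60).

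Values at 18 h share the vehicle arrays with those at 6 h, so they are given side by side only. Some genes were further from vehicle at the later time: ETV4 had changes of -1.06 at 6 h and -3.99 and -3.65 at 18 h in the knockout and rescued lines, NT5E -0.51 and then -3.25 and -3.24, and SOX4 1.42 and then 3.48 and 3.02. Others were nearer to it: CHAC1 had 1.95 at 6 h and 0.45 and 1.33 at 18 h, ATF3 1.38 and then 0.65 and 0.66, and DUSP10 -0.65 and then 0.19 and 0.03. DUSP6 had -5.19 and then -5.50 and -5.12.

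Most changes were seen by more than 1 probe set where the array has several. Of the 2053 changed genes 1148 have another tested probe set, 2005 in all, of which 1878 had the same sign, 1027 also passed in that direction and 7 passed in the opposite one. Among genes that fell at least 2-fold in each line, 149 of 176 further probe sets passed the same way, and among those that rose 45 of 58, with none opposite. Sizes differed more: of 126 named genes past the threshold with another tested probe set, 42 had one whose change was over 1.5-fold apart, smaller in 39 and larger in 3 (DUSP6, EDNRB and TIMP3). Other probe sets of ETV5 fell by as little as 1.38, of ETV1 by 0.99, of MAFF by 2.28, of TGFA by 1.92 and of PHLDA1 by 1.02, and those of VGLL3 and CD24 rose by as little as 1.70 and 1.38. ROR1 (-0.07), PLAUR (-0.42), CCNG2 (-0.09) and DUSP1 (-0.10) each had a probe set that did not pass. For some named genes no other tested probe set passed. Examples are ITGB3 (-0.27, -0.28 and -0.45), KLF3 (0.23, 0.22 and 0.16), SCD (0.28, 0.28 and 0.19) and SMOX (-0.40 and -0.11). Further examples are LEF1 (-0.65 and -0.21), HRK (0.51) and HSPB8 (0.11). Over all 24979 single-symbol probe sets 14.6% passed (5.99% higher and 8.65% lower), and 0.432% and 1.23% rose and fell at least 2-fold in each line.

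Marker genes of the melanocyte lineage and of other cell types were mixed in level and change. The melanocyte markers MITF and ERBB3 rose and SOX10 fell, MLANA and TYRP1 were below the filter, and the summed linear signal of the list went from 3179.3 and 3229.7 to 3665.4 and 3707.0. Epithelial markers had 5 of 10 tested, KRT14 higher by 0.51 and KRT18 lower by 0.32, with EPCAM and CDH1 below the filter, and summed to 8012.8 and 6440.0 and then 6874.0 and 5550.9. Fibroblast markers had 2 of 5 higher, LUM from 6.39 and 7.25 to 7.68 and 8.06 and DCN by 0.39, with COL1A2, COL3A1, PDPN and FAP below the filter. They summed to 574.3 and 708.5 and then 762.2 and 848.3. Blood markers (3 tested, PTPRC below the filter) and endothelial markers (3 tested, CDH5 and KDR below it) had no member that passed. Their sums went from 324.4 and 368.9 to 313.0 and 340.5, and from 222.6 and 244.3 to 204.9 and 192.6. All arrays are of derivatives of the A375 cell line, and whether any other cells were present was not tested.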

How the data were processed

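The deposited values are intensities on a linear scale from 6 Affymetrix U133 Plus 2.0 arrays, made by the authors with RMA and the affy package, per the submitters' processing notes, with no version stated there. This method removes background, brings all arrays to 1 distribution and condenses each probe set to 1 value, so a shift of total mRNA cannot be seen and very dim signals are compressed.

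Here log2 was taken first. Of 54675 probe sets, 62 controls were left out, 41091 carry 1 symbol in the platform annotation, 1801 several and 11721 none, and 41037 of the first matched RefSeq by gene identifier, the other 54 keeping the annotation's symbol. Probe sets with a mean of at least 5 (24979) were fitted with line and treatment over all 6 arrays in limma 3.58.1 (R 4.3.3; 2 residual and 3.53 prior degrees of freedom). Line enters as the block that pairs the arrays, since each line gives 1 array per treatment, and p-values were adjusted by Benjamini-Hochberg over all of these. A gene was read from its brightest single-symbol probe set, 13506 genes in all, and SE is that of the mean change. The script was tested on simulated data. The number of arrays limits the precision.

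The members and the 45 gene lists were chosen with earlier results of these data known. Genes were named as the 30 highest and 30 lowest changes among genes past the threshold with at least 1 log2 unit in each line, up to 6 changed members per list (all where 5 or fewer changed), marker genes and EIF4B; predicted loci were passed over. Other members, and those below the threshold, were named after their values were seen. Alternatives were the normalization centring, filter, probe set rule, prior, block, a test beyond 0.5 log2 units, the 4 arrays alone, and each array left out.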

Additional observations from a re-analysis of the deposited data

Results flagged for a closer look

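Probe sets that carry no single gene symbol stayed outside the comparison. Of 4366 of them with a mean of at least 5, 108 rose (2.47%) and 114 fell (2.61%) at 6 h. In each line 5 rose and 22 fell at least 2-fold (0.115% and 0.504%). The limma model was the same, but the fit was separate and p-values were adjusted over these probe sets alone. The shares of 5.99% and 8.65% among single-symbol probe sets come from the main fit, so the 2 thresholds are not alike. With no gene named here, the probe sets without a single symbol are given as counts only.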

How the results depend on the processing

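The main limits are 1 array per line and treatment and 2 residual degrees of freedom, and dim signals limit how well the size of the deepest falls and of rises from low levels is known. Against 2053 changed genes (920 higher, 1133 lower), the fit with no replicate block, which leaves out the pairing by line, gave 948 (340 and 608). No filter on dim probe sets gave 1206 (466 and 740), a test beyond 0.5 log2 units 232 (58 and 174), and an intensity trend with a robust prior 3139 (1539 higher). Leaving out each array in turn gave 689 to 2378 genes, 234 to 1114 higher and 413 to 1264 lower. The lowest totals came without a vehicle array and the highest without an 18 h array, which equals the 4 arrays alone, since the line left at 18 h then adds nothing to the spread. With the mean of all probe sets of a gene, 151 genes changed at least 2-fold in each line (30 higher) against 235 (62 higher). The 2-fold count could not be given without a vehicle or 6 h array. The marker CLDN4 changed sign, from 0.20, which did not pass, to -0.3081 with that mean. The fit on arrays centred on their medians gave 1259 higher and 1083 lower. Of 222 named genes past the threshold, 144 to 162 still passed without 1 of the 4 arrays and 149 with no replicate block. The causes of these differences were not tested.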

Other observations

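All values here were picked after they were seen. The first set comes from genes that changed at least 2-fold in each line and, apart from FOXD3, are in none of the lists. Death receptors were among the falls: TNFRSF21 changed by -2.15 and TNFRSF10A, a TRAIL receptor, by -1.82. So were enzymes that build glycans of the cell surface and matrix, HAS3 (-1.52), CHST2 (-1.49), CHSY1 (-1.24) and EXT1 (-1.04), and the sialyltransferases ST3GAL4 (-1.3) and ST3GAL5 (-1.28), while ST8SIA4 rose. Effectors of the small GTPase CDC42, CDC42EP3 (-1.66) and CDC42EP2 (-1.38), and the G protein regulators RGS16 (-1.45) and RGS2 (-1.04) also fell. Homeobox and forkhead factors HHEX (-1.99), FOXC2 (-2.03), FOXD1 (-1.38) and HOXB2 (-1.94) fell as FOXD3 rose.

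Among such rises were receptors and ligands: the melanocortin receptor MC4R (1.58), the thrombin receptors F2R (1.46) and F2RL2 (1.18), the neuropeptide ADCYAP1 (1.26) and KITLG (1.21), the ligand of KIT. Under vehicle MC4R (4.05 and 4.06) and ADCYAP1 (4.63 and 3.81) read below the filter of 5, so the size of neither rise is firm. CBLB, a ubiquitin ligase that limits receptor kinases, rose by 1.5. These are single genes, and no group of them was tested.

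The change at 6 h differed by at least 1 log2 unit between the lines in 20 tested genes, which has no test with 1 array per line and treatment. Outside the stress response lists, SLFN5 had changes of -0.03 (knockout) and 1.60 (rescued), LURAP1L of 0.74 and 2.03, RBM43 of 0.43 and 1.49, ANKRD55 of -1.61 and -0.22 and CYP1A1 of -2.32 and -1.3. Of these, SLFN5, RBM43 and ANKRD55 did not pass the test at 6 h (limma adjusted p = 0.202, 0.0513 and 0.107).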
